A study of Homo sapiens with 4 samples.

Results

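Transcripts of 10 surface proteins that are used to recognise myeloma cells or to direct immunotherapy at them were followed in NCI-H929, a cell line established from a human multiple myeloma. The genes were chosen by name (TNFRSF17, TNFRSF13B, TNFRSF13C, CD27, SDC1, CD38, SLAMF7, FCRL5, GPRC5D and NCAM1). All 10 have a row among the 56809 genes of the count table. The cells expressed Cas9, the nuclease that cuts DNA at sites set by a guide RNA. The knockout group (KO, 2 libraries) carried an inducible construct against BCL7A, a subunit of BAF chromatin remodelling complexes, and the control group (2 libraries) carried a control construct according to the protocol, although the titles and genotype field name these samples wild type. Both groups passed through puromycin selection for 3 days and then 24 h with doxycycline at 0.5 ug/ml before poly(A) RNA was sequenced. The labels do not say whether a line is a clone or a pool, or whether the replicates are separate cultures. The p-values therefore rest on library-to-library spread that may be technical.

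Plasma cells are the antibody-secreting end stage of B cells, and myeloma is their malignancy. BCMA (TNFRSF17), TACI (TNFRSF13B) and BAFF-R (TNFRSF13C) are related receptors for the cytokine BAFF, its relative APRIL or both: BAFF-R serves mature B cells, whereas BCMA sustains long-lived plasma cells. CD27 is a receptor of the same superfamily that binds CD70 and marks memory B cells and plasma cells. Syndecan-1 (SDC1, CD138) is a heparan sulfate proteoglycan, CD38 an enzyme that consumes NAD, SLAMF7 a self-binding receptor of the SLAM family, FCRL5 an Fc receptor-like protein of B lineage cells, GPRC5D an orphan G protein-coupled receptor and NCAM1 (CD56) an adhesion molecule that many myelomas carry and normal plasma cells mostly lack. Antibodies or engineered T cells against BCMA, CD38, SLAMF7, GPRC5D and FCRL5 have been developed for myeloma.

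RefSeq promoter windows (GRCh38.p14) were found for 6 of the 10 genes, in 7 windows, and 3 are shown because their genes moved most among the tested genes with a window: SDC1 and CD38 rose in KO libraries and CD27 nearly vanished. Each shows bases upstream of the RefSeq transcript start, 5′ to 3′ on the gene's strand, with CG dinucleotides in capitals. The CD38 stretch stops where the GENCODE gene begins, and the CD27 stretch overlaps an exon of the antisense gene CD27-AS1. It ends at 6443891, whereas CD27 begins at 6444867 in GENCODE, so the CD27 stretch does not lie directly before that gene start.
SDC1 chr2:20225476-20225725 (minus strand): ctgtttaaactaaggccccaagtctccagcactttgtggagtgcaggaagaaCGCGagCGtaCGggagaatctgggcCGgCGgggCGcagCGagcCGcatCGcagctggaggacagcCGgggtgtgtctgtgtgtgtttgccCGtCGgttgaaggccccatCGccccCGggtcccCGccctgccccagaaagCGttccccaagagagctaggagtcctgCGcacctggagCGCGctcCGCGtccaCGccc
CD38 chr4:15778078-15778274 (plus strand): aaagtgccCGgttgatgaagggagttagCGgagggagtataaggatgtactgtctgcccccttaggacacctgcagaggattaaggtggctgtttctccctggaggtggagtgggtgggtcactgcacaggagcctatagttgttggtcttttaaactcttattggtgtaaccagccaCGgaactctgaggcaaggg
CD27 chr12:6443642-6443891 (plus strand): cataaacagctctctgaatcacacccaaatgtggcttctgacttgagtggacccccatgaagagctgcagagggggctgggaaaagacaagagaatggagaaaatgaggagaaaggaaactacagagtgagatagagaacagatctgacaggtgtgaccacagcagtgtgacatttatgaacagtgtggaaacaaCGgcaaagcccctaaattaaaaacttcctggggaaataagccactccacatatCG
The 250 bases upstream of the SDC1 start held 23 CG dinucleotides, more than in 74.2% of the 35116 promoters in the table, whose median was 11. The same length held 3 in CD38 and 2 in CD27, and 4, 3 and 5 in GPRC5D, FCRL5 and TNFRSF13B. Both strands of the 7 windows were searched for CACGTG (an E-box), the interferon-stimulated response element of IRF factors, the composite ETS and IRF element and the NF-kB site, each of these 3 in a fixed form, and matches of different motifs may overlap. They occurred in 6.34%, 3.02%, 2.41% and 1.40% of all promoters. The only match was to the composite ETS and IRF element, GGAAGGGAAA in CD38 at chr4:15778285-15778294, inside the transcribed start of the GENCODE gene and so outside the stretch shown. A match to letters describes the sequence and does not show a bound site.

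Gene counts summed to 38671744 and 40799624 in KO libraries and to 17567202 and 20153596 in control libraries, so depth differed with the group. BCL7A itself had 1.31 and 1.19 CPM (counts divided by the TMM-scaled library size in units of 1e6) in KO libraries, against 42.9 and 45.7 CPM in control libraries. All 10 plasma cell markers had at least 1 CPM in both control libraries and 9 of them in both KO libraries (CD79A, a B cell receptor subunit gene, had 4 and 8 counts in KO against 1602 and 1913 in control), summing to 15300 CPM in each KO library and to 11500 to 11600 CPM in control libraries. Of 8 mature B cell markers, 3 stayed under 1 CPM in every library, and the sum was 60.4 to 61.9 CPM in KO, against 87.1 to 91.2 CPM in control libraries. Markers of NK cells, which also carry NCAM1, summed to 0.854 to 0.866 CPM in KO, against 3.00 to 4.10 CPM in control libraries. T cell markers summed to 15.0 to 15.2 against 29.8 to 30.7 CPM and epithelial markers to 12.0 to 12.6 against 66.1 to 70.9 CPM, KO before control. Stromal and endothelial markers, mostly PECAM1, summed to 98.3 to 99.5 against 43.1 to 45.9 CPM, and erythroid markers to 0.244 to 0.57 against 4.61 to 5.09 CPM. These sums hide opposite directions within lists. PECAM1 averaged 98.5 CPM in KO against 34.0 CPM in control libraries, but COL1A1 0.334 against 9.85 CPM. EPCAM averaged 0 against 52.9 CPM, but KRT18 6.49 against 1.93 CPM. PAX5 averaged 0.291 against 22.3 CPM, but CD79B 31.1 against 18.6 CPM. Myeloid markers summed to at most 2.22 CPM in a library. The part of these marker levels in the results was not tested.

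Most of the antigens rose in KO libraries, and CD27 and BAFF-R transcripts fell. Of the 9 members that passed the filter on low counts, 7 rose (SDC1, CD38, TNFRSF17, NCAM1, SLAMF7, GPRC5D and FCRL5) and 2 fell (CD27 and TNFRSF13C) by edgeR's quasi-likelihood test at an adjusted p under 0.05. TNFRSF13B was too low to test. Of all 17885 tested genes, 76.2% passed the same threshold, 36.4% upward and 39.8% downward, so a call by itself sets no gene apart. SDC1, CD38 and TNFRSF17 rose at least 2-fold, as did 9.47% of all tested genes, and CD27 and TNFRSF13C fell at least 2-fold, as did 23.5%. The libraries of the groups did not overlap for any of the 9, as was so for 87.4% of all tested genes. The median log2 fold change was 0.32 over the 9 tested members and -0.06 over all tested genes. Counts of the 10 genes together made up 0.218% of each KO library, and 0.145% and 0.147% of the control libraries. In these bulk libraries, fewer cells with a transcript and less of it per cell cannot be told apart.

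**Figure D1:**
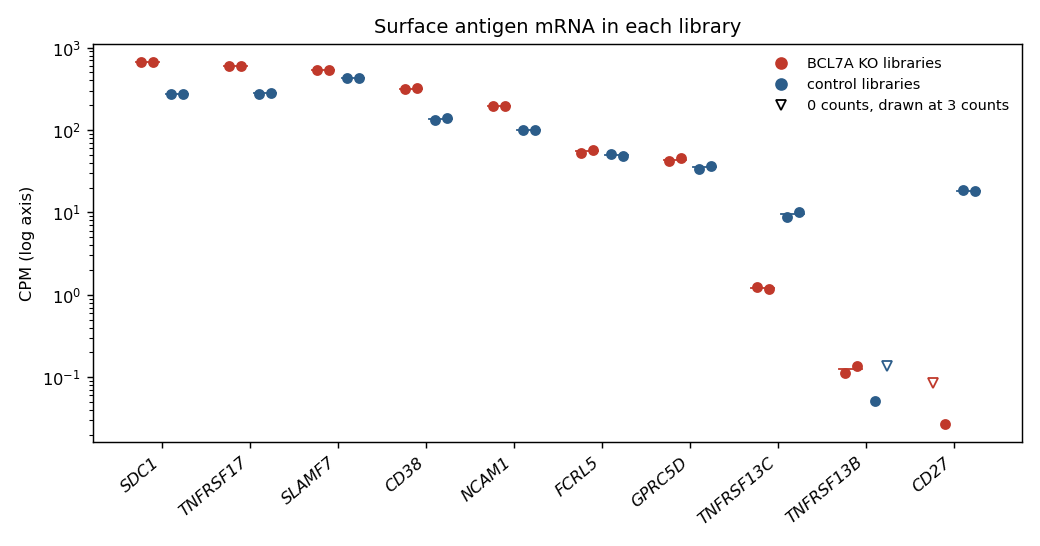
CPM on a log axis for the 10 surface antigen genes, with 1 point per library (2 BCL7A KO and 2 control) and a line at each group mean. SDC1 and TNFRSF17 sit at 594 CPM or more in KO and at 282 CPM or less in control libraries, while CD27 has 0 and 1 counts in KO libraries and about 18 CPM in both control libraries.

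Among the TNF receptor antigens, TNFRSF17 rose while TNFRSF13C and CD27 fell. TNFRSF17, which encodes BCMA (chromosome 16, 11965107 to 11968068, plus strand, GRCh38), had 595 and 594 CPM in KO libraries, against 277 and 282 CPM in control libraries. Both KO libraries lay above both control libraries, with a fold change of 2.13 (log2 fold change 1.09, SE 0.03, adjusted p = 4.77e-24 by edgeR). TNFRSF13C, which encodes BAFF-R (chromosome 22, 41922023 to 41926818, minus strand), had 1.25 and 1.16 CPM in KO libraries, against 8.90 and 10.2 CPM in control libraries. It was thus low in every library and 7.91-fold lower in KO libraries (log2 fold change -2.98, SE 0.18, adjusted p = 8.37e-15). TNFRSF13B, which encodes TACI (chromosome 17, 16929816 to 16972118, minus strand), was near absent throughout, with 4 and 5 counts in the KO and 1 and 0 counts in control libraries. The ratio of KO to control was 5.19 with an exact 95% Clopper-Pearson counting interval of 0.719 to 227, which covers counting error only. Without the filter on low counts, edgeR gave TNFRSF13B a log2 fold change of 2.25 (SE 1.57, adjusted p = 0.26). The pseudogene TBC1D27P overlaps 5024 bases of TNFRSF13B on the same strand and had at most 7 counts in a library.

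CD27 (chromosome 12, 6444867 to 6451718, plus strand) showed the widest gap of the members. It had 0 and 1 counts in KO libraries, against 359 and 399 counts in control libraries, where its level was 18.6 and 18.0 CPM. The control level was 1316-fold higher, with a 95% counting interval of 235 to 52032. The fitted log2 fold change of CD27 rests on a single KO count and is not given; its adjusted p was 2.52e-21 by edgeR. The antisense gene CD27-AS1 overlaps 6701 bases of CD27 and had 5.58 and 4.47 CPM in KO libraries, against 3.93 and 4.91 CPM in control libraries. These ranges overlapped, and CD27-AS1 did not pass the test (log2 fold change 0.18, SE 0.17, adjusted p = 0.351). The strand setting of the counting is not given, but the KO libraries held 196 and 165 CD27-AS1 counts beside 0 and 1 CD27 counts, so reads of CD27-AS1 were not counted as CD27 there.

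Syndecan-1, CD38 and NCAM1 transcripts rose 1.95- to 2.43-fold. SDC1 (chromosome 2, 20200797 to 20225433, minus strand) had 667 and 664 CPM in KO libraries, against 277 and 271 CPM in control libraries. That was the largest rise among the tested members (log2 fold change 1.28, SE 0.03, adjusted p = 1.16e-25). CD38 (chromosome 4, 15778275 to 15853230, plus strand) had 316 and 321 CPM in KO libraries, against 131 and 140 CPM in control libraries. The CD38 libraries of the groups were far apart compared with their spread (log2 fold change 1.23, SE 0.03, adjusted p = 5.63e-23). NCAM1 (chromosome 11, 112961247 to 113278436, plus strand) had 193.5 and 193.6 CPM in KO libraries, against 99.6 and 99.0 CPM in control libraries. Its fold change was 1.95 (log2 fold change 0.96, SE 0.03, adjusted p = 1.58e-20). NCAM1 overlaps the antisense genes NCAM1-AS1 and AP000802.1, neither of which passed 14 counts in any library.

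SLAMF7, GPRC5D and FCRL5 rose less. The size of these rises depends on the TMM factors, which were lower in both KO libraries than in both control libraries. With counts divided by unscaled library totals, FCRL5 was lower in both KO libraries than in both control libraries, and the groups overlapped for GPRC5D. SLAMF7 stayed higher in KO libraries, but by less than after scaling. No fit was run without scaling factors. SLAMF7 (chromosome 1, 160739057 to 160754821, plus strand) had 535 and 529 CPM in KO libraries, against 425 and 427 CPM in control libraries. The rise was 1.25-fold and larger than the spread within either group (log2 fold change 0.32, SE 0.03, adjusted p = 2.90e-12). GPRC5D (chromosome 12, 12940775 to 12952147, minus strand) had 42.3 and 45.2 CPM in KO libraries, against 33.6 and 36.9 CPM in control libraries. Both KO libraries were above both control libraries, and the antisense gene GPRC5D-AS1 had at most 2 counts in a library (GPRC5D log2 fold change 0.31, SE 0.06, adjusted p = 3.26e-05). FCRL5 (chromosome 1, 157513377 to 157552520, minus strand) had 53.3 and 56.9 CPM in KO libraries, against 50.8 and 48.3 CPM in control libraries. Its groups were separated by less than the gap between its own KO libraries, and its call was the least firm (log2 fold change 0.16, SE 0.05, adjusted p = 0.00693). Upper-quartile scaling shifted the median of all tested genes by -0.13 (log2) and left FCRL5 at 0.02 (adjusted p = 0.708). Over all 13 alternatives the adjusted p of FCRL5 ran from 2.83e-06 to 0.708, and 6 of them lost the call, among them the fits without KO replicate 2 (log2 fold change 0.12) and without control replicate 2 (0.10).

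**Figure D2:**
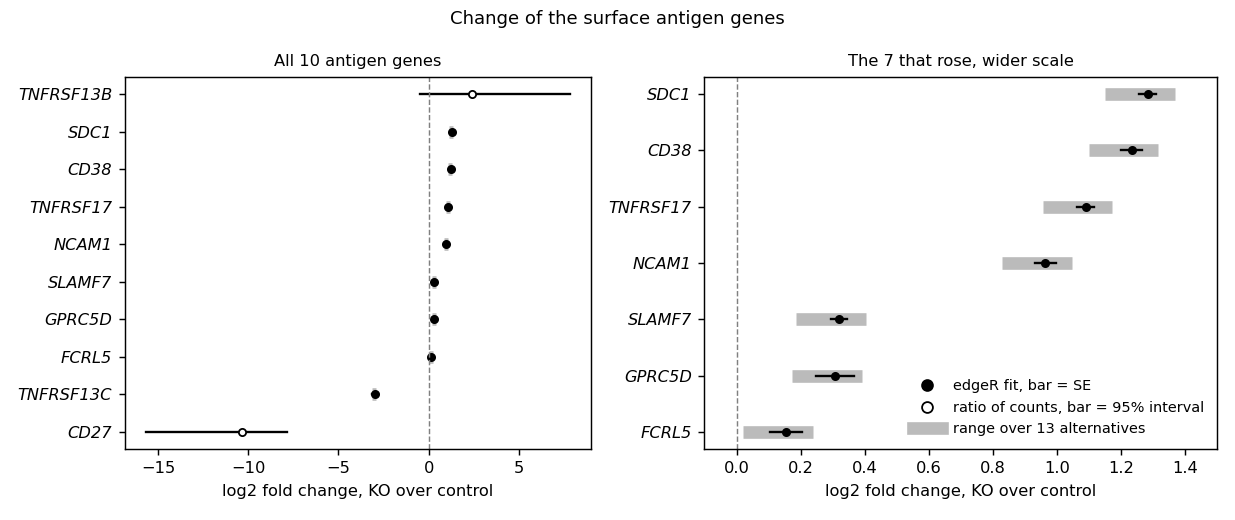
Log2 fold change of KO over control (x axis) for the 10 antigen genes (left) and on a wider scale for the 7 that rose (right). Filled points are edgeR estimates with their SE, open points are ratios of counts with 95% counting intervals, and grey bars span 13 alternatives; SDC1, CD38, TNFRSF17 and NCAM1 lie between 0.96 and 1.28, apart from SLAMF7, GPRC5D and FCRL5 at 0.16 to 0.32.

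To rank the antigens against each other, levels were divided by the length of each gene's longest annotated transcript, which need not be the one these cells express. On this scale TNFRSF17 led in both groups, with 598 ± 0.735 CPM per kb in the KO and 281 ± 3.97 CPM per kb in control libraries (SD, n = 2 each). That exceeded 99.7% of 19810 protein-coding genes in the KO group and 99.5% in the control group. SDC1 stood next in KO libraries (202 ± 0.524 CPM per kb) ahead of SLAMF7 (150 ± 1.11), whereas SLAMF7 (120 ± 0.334) stood ahead of SDC1 (83.1 ± 1.25) in control libraries. CD38 and GPRC5D changed places in the same way. CD38 had 56.2 ± 0.618 and GPRC5D 42.1 ± 2.00 CPM per kb in KO libraries, while CD38 had 23.9 ± 1.14 and GPRC5D 34.0 ± 2.26 CPM per kb in control libraries. NCAM1 followed with 32.0 ± 0.0048 CPM per kb in the KO and 16.4 ± 0.0664 CPM per kb in control libraries. FCRL5 had 10.2 ± 0.485 against 9.19 ± 0.317 CPM per kb, KO before control. CD27 had 13.7 ± 0.316 CPM per kb in control libraries, between NCAM1 and FCRL5, and fell to the foot of the order in KO libraries. TNFRSF13C had 0.306 ± 0.016 CPM per kb in the KO and 2.42 ± 0.238 CPM per kb in control libraries. Neighbours in the order did not overlap between libraries of a group, but TNFRSF13B and CD27 rested on so few KO counts that their order there cannot be read.

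**Figure D3:**
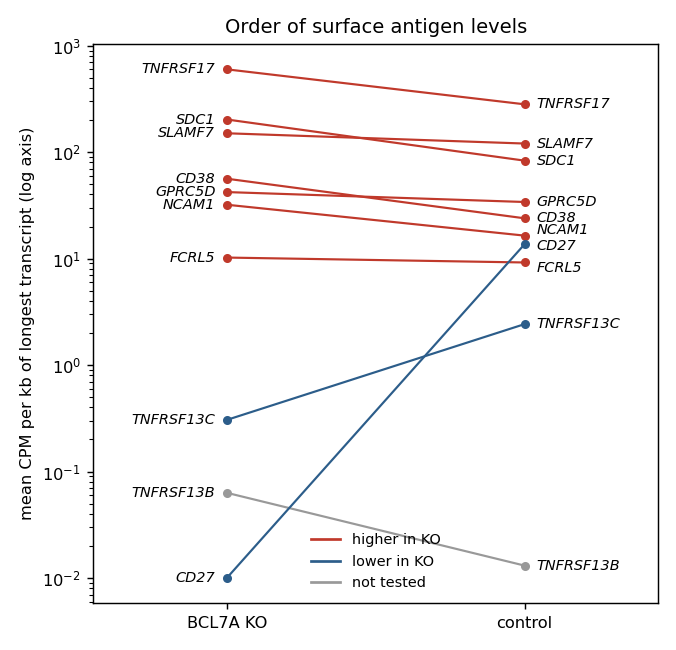
Mean CPM per kb of the longest transcript (log axis) of each antigen gene in the BCL7A KO group (left) and the control group (right), joined by lines. TNFRSF17 leads in both, SDC1 and CD38 each pass a neighbour in the KO group, and the CD27 line runs to the foot of the KO side.

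Ratios between antigens within a library do not depend on how libraries are scaled. CD38 counts were 47.4% and 48.3% of SDC1 counts in KO libraries, and 47.3% and 51.7% in control libraries, so the groups overlapped. TNFRSF17 counts were 89.3% and 89.4% of SDC1 counts in KO libraries, and 100.1% and 104% in control libraries. For NCAM1 the shares were 29.03% and 29.1% in KO libraries, and 36.0% and 36.6% in control libraries. Because SDC1 rose most among the tested members, a lower mean share in KO libraries was set in advance for the others. Only the sizes of the losses can be compared. SLAMF7, GPRC5D and FCRL5 lost more ground to SDC1 than CD38, TNFRSF17 and NCAM1 did. SLAMF7 counts were 80.2% and 79.7% of SDC1 counts in KO libraries, against 153.9% and 157.8% in control libraries. GPRC5D counts were 6.34% and 6.80% of SDC1 counts in KO libraries, against 12.2% and 13.6% in control libraries. FCRL5 counts were 7.99% and 8.57% in KO libraries, against 18.4% and 17.9% in control libraries. With 2 libraries per group these ratios were not tested.

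Genes beside the antigens on the chromosomes moved in both directions. Of the 60 nearest protein-coding neighbours, 3 on each side of each antigen, 45 were tested, of which 14 rose and 22 fell. Their median log2 fold change was -0.18, against -0.06 over all tested genes, of which 36.4% rose and 39.8% fell. These shares are the background for every count of called genes below, also for the neighbours of a single antigen. GPRC5D rose although all 5 of its tested neighbours fell. These were APOLD1 (log2 fold change -2.07), DDX47, an RNA helicase gene (-0.60), HEBP1, a heme-binding protein gene (-0.36), FAM234B (-0.29) and the GPRC5D paralog GPRC5A, which had 1 count in each KO library and 9 and 17 counts in control libraries. Around FCRL5, on the other hand, all 4 tested neighbours rose: ETV3, an ETS family repressor gene (0.70), the FCRL5 relatives FCRL3 (1.13) and FCRL2 (0.40), and ARHGEF11 (0.17, lost with upper-quartile scaling, at 0.03). On unscaled library totals ARHGEF11 was lower in both KO libraries than in both control libraries. Next to CD27, TNFRSF1A, which encodes a TNF receptor (-1.45), VAMP1, a vesicle fusion gene (-1.80), and TAPBPL, a peptide-editing gene of MHC class I (-0.26), fell. The adjusted p of TAPBPL ran from 5.13e-05 to 0.0638 over the alternatives. TAPBPL overlaps the end of CD27 by 29 bases on the same strand and kept 17.6 and 17.5 CPM in KO libraries, against 20.5 and 21.5 CPM in control libraries. Beside TNFRSF17, GSPT1, a translation termination factor gene (0.43), and RSL1D1, a nucleolar protein gene (0.40), rose, while SNX29 (-0.26) and SHISA9 (-2.73, SE 0.16) fell, SHISA9 by most. NPIPB2 lies antisense across all of TNFRSF17 and had 6.83 and 5.49 CPM in KO libraries, against 9.26 and 6.94 CPM in control libraries (log2 fold change -0.39, adjusted p = 0.0249, lost in 4 of 13 alternatives). TNFRSF17 had at least 277 CPM in every library, against at most 9.26 CPM for NPIPB2. Whether reads of NPIPB2 were counted as TNFRSF17 was not tested. Near TNFRSF13C, SREBF2, a regulator of cholesterol synthesis (-0.52), SEPT3, a septin gene (-1.14), and SHISA8 (0 counts in both KO libraries, 13 and 10 in control) fell, and CENPM, a centromere protein gene (0.68), rose. Near SDC1, 3 of 5 tested neighbours fell, most of all RHOB, a small GTPase gene (-1.05), and 1 rose, LAPTM4A (0.28). On unscaled library totals the groups overlapped for LAPTM4A. Near CD38, PROM1 fell (2 and 4 counts in KO, 10 and 19 in control). Near NCAM1, ANKK1 (-2.13, SE 0.46) fell and BCO2, a carotenoid-cleaving enzyme gene (1.32, SE 0.30), rose.

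**Figure D4:**
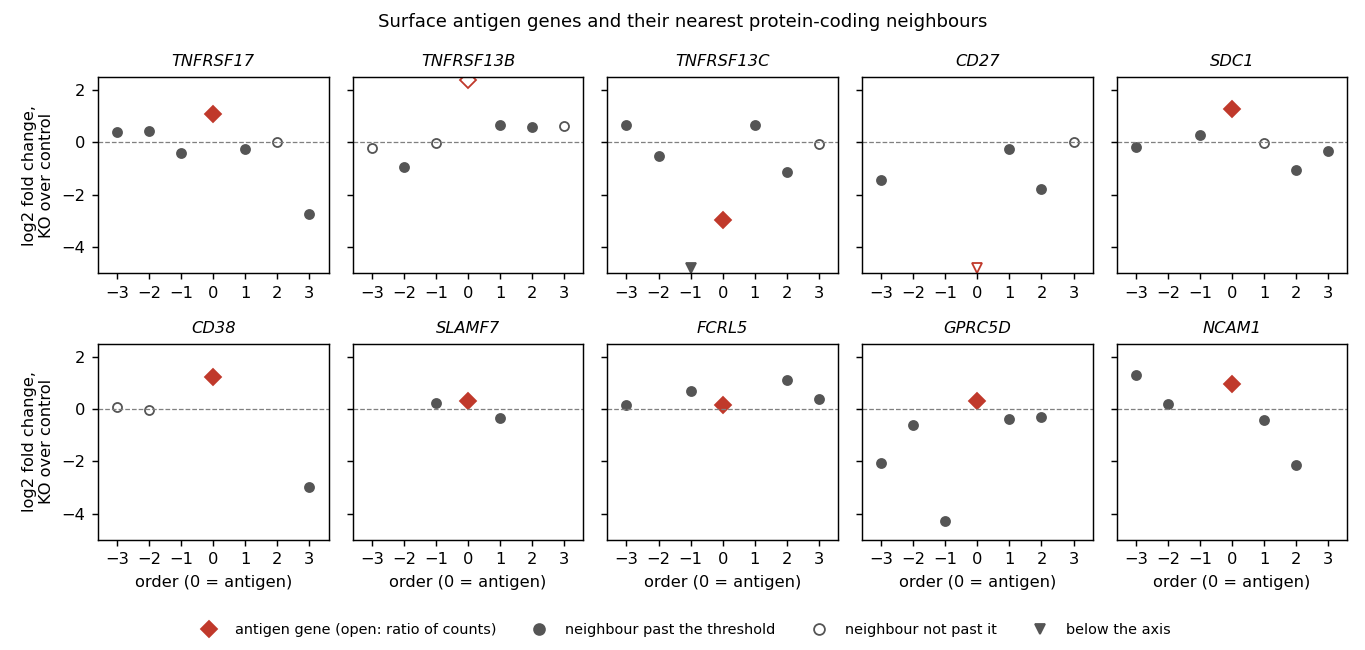
Log2 fold change of KO over control (y axis) for each antigen gene (red) and up to 3 protein-coding neighbours on each side in chromosome order (grey; untested genes left out). GPRC5D stands above 5 neighbours that fell, and FCRL5 stands among 4 that rose.

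Partners of the TNF receptor antigens were mostly lower in KO libraries. Of 14 ligands and adaptors, all tested, 2 rose and 9 fell (median log2 fold change -1.33, against -0.06 over all tested genes, of which 36.4% rose and 39.8% fell). TRAF3, an adaptor that restrains non-canonical NF-kB signalling, was 37.6 ± 0.945 CPM in KO, against 163 ± 6.11 CPM in control libraries (SD, n = 2 each; adjusted p = 3.34e-26). BIRC3, a ubiquitin ligase gene of the same complex, was 12.4 ± 0.190 against 84.2 ± 2.30 CPM, MAP3K14, which encodes the kinase NIK, 9.79 ± 0.293 against 23.8 ± 2.07 CPM, and TRAF5 0.751 ± 0.105 against 5.11 ± 0.352 CPM. CD70, the ligand of CD27, fell with its receptor, to 1.09 ± 0.177 CPM in KO libraries, against 16.5 ± 1.42 CPM in control libraries (log2 fold change -3.91, SE 0.17). The cytokines themselves, named after their values were seen, were low: TNFSF13 (APRIL) had 3 and 1 counts in KO libraries and 25 in each control library, and TNFSF13B (BAFF) 0.707 ± 0.0335 against 0.890 ± 0.0152 CPM (adjusted p = 0.464). Of the 6 genes of gamma-secretase, the protease that sheds BCMA from the cell surface, 3 rose and 2 fell (median 0.19). APH1A (log2 fold change 0.48, SE 0.03), NCSTN (0.31, SE 0.03) and PSENEN (0.47, SE 0.06) rose, while the APH1A paralog APH1B (-2.16, SE 0.11) fell.

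Genes that build, trim or shed syndecans split. Of 15 genes of heparan sulfate synthesis, 14 were tested, 4 rose and 7 fell (median log2 fold change -0.06). XYLT1, which starts the sugar chain on the core protein, was 208 ± 2.19 CPM in KO, against 110 ± 1.196 CPM in control libraries, and EXT1, a chain polymerase gene, 38.6 ± 1.54 against 19.7 ± 1.68 CPM. NDST1, a sulfotransferase gene, rose as well (log2 fold change 0.53, SE 0.04). B3GALT6 (-1.54, SE 0.09) and EXTL3 (-0.66, SE 0.05), both of the linker and chain initiation steps, fell. Of 12 other syndecan, sulfatase and protease genes, 11 were tested, 6 rose and 3 fell (median 0.23). SULF2, an extracellular sulfatase gene that edits heparan sulfate, was 249 ± 0.301 against 83.0 ± 2.97 CPM. SULF1 (1.97, SE 0.30), SDC2 (1.72, SE 0.19) and the sheddase gene ADAM10 (0.24, SE 0.03) also rose. The ADAM10 rise depends on the TMM factors: on unscaled library totals it was lower in both KO libraries than in both control libraries. HPSE, the heparanase gene whose product cuts the chains, had 0 counts in both KO libraries and 71 and 88 counts in control libraries, which puts control at least 91.7-fold higher when the KO group is set at 3 counts.

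Genes of NAD supply and of the CD38 ligand gave no common direction. Of 13 listed, 11 were tested, 4 rose and 5 fell (median log2 fold change 0.01). NAMPT, the rate-limiting enzyme gene of NAD salvage, was 310 ± 5.76 CPM in KO, against 193 ± 0.871 CPM in control libraries. PECAM1, which encodes a ligand of CD38, was 98.5 ± 0.933 against 34.0 ± 1.96 CPM. QPRT (1.08 ± 0.000343 against 31.8 ± 0.345 CPM) and NAPRT (0.483 ± 0.159 against 12.97 ± 1.198 CPM), entry enzymes for NAD made from quinolinate and nicotinate, fell. ENTPD1 (CD39), an ectonucleotidase gene, fell furthest, to 0.126 ± 0.0634 against 35.7 ± 0.591 CPM. BST1 (CD157), the paralog next to CD38, had at most 4 counts in a library.

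Relatives of SLAMF7, FCRL5 and GPRC5D did not move as a block. Of 11 SLAM family and adaptor genes only 3 were tested. CD48 (707 ± 9.84 CPM in KO, against 597 ± 18.7 CPM in control libraries) and the kinase gene FYN (43.2 ± 0.0358 against 26.5 ± 0.542 CPM) rose, and LY9 (CD229) fell (89.5 ± 0.745 against 114 ± 1.17 CPM). The CD48 rise depends on the TMM factors, since its groups overlapped on unscaled library totals. CD48 and LY9 flank SLAMF7 on either side. Of 7 FCRL genes besides FCRL5, 5 were tested: FCRL3 and FCRL2 rose as given above, FCRLA fell (76.3 ± 0.112 against 123 ± 1.66 CPM), and FCRL1 and FCRLB did not pass (adjusted p = 0.39 and 0.429). None of the 3 GPRC5 paralogs rose. GPRC5C had 1 and 2 counts in KO libraries and 174 and 183 counts in control libraries, a control level 207-fold higher (95% counting interval 70.1 to 1006). GPRC5A was 22.6-fold higher in control libraries (interval 5.65 to 196), and GPRC5B was 0.595 ± 0.0767 CPM in KO, against 1.041 ± 0.375 CPM in control libraries (adjusted p = 0.0781).

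Among 30 further surface proteins used to describe myeloma cells, 25 were tested, 12 rose and 13 fell (median log2 fold change -0.07). ITGB7 and ITGA4, which together encode the homing integrin alpha4 beta7, had log2 fold changes of 1.39 (SE 0.02) and 1.35 (SE 0.03). IL6R, the receptor gene for the myeloma growth factor IL-6, was 1.00 (SE 0.02) and LILRB4, an inhibitory receptor gene, 1.62 (SE 0.04). CD74, the MHC class II invariant chain, stood at the other end, with 41 and 61 counts in KO libraries and 5081 and 5968 counts in control libraries. Among 17 listed regulators of antigen genes in B cells and plasma cells, all tested, 7 rose and 7 fell (median 0.13). MAF, which encodes an activator of integrin and cyclin genes in myeloma, rose (log2 fold change 1.98, SE 0.04). XBP1 (log2 fold change 0.90, SE 0.02) and POU2AF1 (0.83, SE 0.03), both active in plasma cells, rose. PAX5, which holds B cell identity, fell to 0.291 ± 0.00916 CPM in KO libraries, against 22.3 ± 0.075 CPM in control libraries, and RELB of the NF-kB family fell too (-1.41, SE 0.06).

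**Figure D5:**
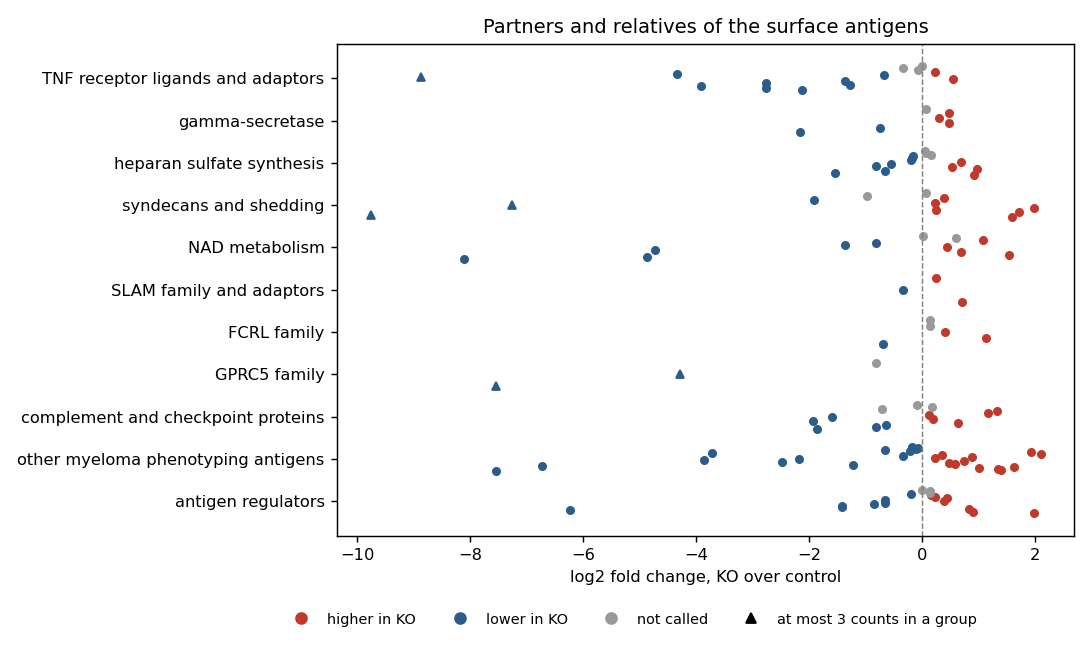
Log2 fold change of KO over control (x axis) for each tested gene of the 11 partner and relative lists, coloured by its call; triangles have at most 3 counts in a group, where the fitted value is not a bound. The TNF receptor ligands and adaptors lie mostly below 0 (9 of 14 fell), while the other surface antigens spread to both sides (12 rose and 13 fell).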

How the data were processed

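Poly(A) RNA-seq of 2 BCL7A KO and 2 control samples was used. The authors deposited gene-level estimated counts, all whole numbers, in 1 table; the submitters' processing notes name Salmon 0.12 and GRCh38. The annotation, rounding and strand setting: not given in the sources used here. All 56809 gene names are in GENCODE release 29, which gave positions, overlaps and transcript lengths, and promoter sequences came from RefSeq (GRCh38.p14). A further 92 spike-in rows (at most 2 counts) entered neither library sizes nor tests.

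Genes were filtered with filterByExpr, scaled with TMM (factors 0.909 and 0.906 in KO, 1.10 in both control libraries) and tested with edgeR 4.0.16 (glmQLFit with robust shrinkage, glmQLFTest, no covariates) over all 17885 tested genes, with Benjamini-Hochberg adjustment and a threshold of 0.05. Log2 fold changes are KO over control, and SE is their absolute value over the square root of F. A group at 0 counts was set at 3 counts over the group (0.0416 CPM in KO, 0.0723 CPM in control). With 1 to 3 counts in a group, a ratio with a 95% Clopper-Pearson interval is given. Of each list, up to 5 tested genes of smallest p are named, besides the members, their 3 nearest protein-coding neighbours a side and BCL7A; some genes under this rule are not reported here. The members and lists were chosen with earlier results of these data known. The scripts were tested on simulated data. Replicates differed beyond counting noise (chi-square over its degrees of freedom 1.79 in KO and 2.43 in control), a spread that may still be technical. The coefficient of variation between replicates that edgeR estimated was 2.32%. Each library was treated as 1 replicate, which these values cannot show to be right. Alternatives were RLE and upper-quartile factors, other filters, DESeq2 1.42.0, limma-voom (limma 3.58.1), a replicate block, each library left out, no robust shrinkage, thinned KO libraries and a threshold of 0.01.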

Additional observations from a re-analysis of the deposited data

How the results depend on the processing

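Over 13 alternative fits, 8 of the 9 tested antigens kept their direction and their call, and FCRL5 kept its direction in all 13 and its call in 7. All of these fits used scaling factors, whereas on unscaled library totals FCRL5 was lower in KO libraries. The number of antigens that rose was 6 or 7 and the number that fell was 2 under every alternative, also at a threshold of 0.01. Same-numbered libraries of the groups did not deviate together across genes (correlation -0.00894). With 2 libraries per group this cannot show whether the numbers stand for a pairing. With the replicate block, 7 antigens rose and 2 fell, and over all genes 6365 rose and 6922 fell, against 6506 and 7123 without it. Of the other genes named, FCRL1, which was not called, turned to -0.12 without control replicate 2 (and passed at 0.42 without control replicate 1), and FCRLB, also not called, turned to -0.011 with thinned KO libraries and ran between -0.016 and 0.33 as single libraries were left out (lowest without control replicate 1, highest without control replicate 2); the cause was not tested. GPRC5B passed with upper-quartile factors and without control replicate 1. NPIPB2, at -0.39, lost its call in 4 alternatives (adjusted p from 0.00114 to 0.347). Leaving out the filter on low counts changed the median over all genes by -0.17 (log2), but that median covers 31836 genes instead of 17885. The change of the median thus does not show how single genes moved, and the antigens moved upward by like amounts. Under this setting TNFRSF17 went from 1.09 to 1.17, FCRL5 from 0.16 to 0.24, SDC1 from 1.28 to 1.37 and TNFRSF13C from -2.98 to -2.90. Low counts limit the results for TNFRSF13B, with 10 counts over all 4 libraries, and for CD27 in the KO group. Depth also mattered for FCRL5, which lost its call with KO libraries thinned to control depth (log2 fold change 0.06, adjusted p = 0.352 by edgeR).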

Other observations

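Transcripts of complement regulators, immune checkpoint ligands and NK cell receptor ligands, some of which shield a cell and some of which expose it to killing, were measured alongside the antigens. Of 15 genes listed, 13 were tested, 5 rose and 5 fell (median log2 fold change -0.08, against -0.06 over all tested genes). CD55, which speeds the decay of complement convertases, had 10.2 ± 0.221 CPM in KO libraries, against 37.3 ± 0.749 CPM in control libraries (SD, n = 2 each; log2 fold change -1.87, SE 0.07, adjusted p = 5.07e-19 by edgeR). CD59, which blocks the membrane attack complex, was 97.8 ± 1.74 CPM in KO, against 153 ± 3.15 CPM in control libraries. CD47, the "do not eat me" ligand of SIRP alpha on macrophages, fell to 80.6 ± 1.77 CPM in KO libraries, against 142 ± 2.95 CPM in control libraries. NECTIN2, a ligand of activating and inhibitory NK cell receptors, fell as well (1.60 ± 0.0408 against 6.07 ± 1.42 CPM), while MICB, a ligand of the activating receptor NKG2D, rose to 36.0 ± 0.491 CPM in KO libraries, against 23.1 ± 0.863 CPM in control libraries.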
